A study of Mus musculus with 9 samples.

Results

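Nuclear receptors are transcription factors that bind DNA and, for many of them, a lipid-soluble ligand, and coregulators are the proteins they recruit to switch target genes on or off. The set described here was a list of 42 mouse genes, made of fatty acid, retinoid, thyroid, sterol, bile acid, xenobiotic, steroid and orphan receptors with 4 coactivators and corepressors. A gene was measured through the probe sets that carried its symbol and no other, and for a gene with more than 1 such probe set the brightest over all 9 arrays was used. This left 40 of the 42 members, out of 19938 genes measured in the same way. Nr1h2 and Ncor1 were not analysed here.

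Whole kidneys of female wild type mice in a mixed FVB/C57BL6 background were compared at 14 and 96 weeks of age, with 4 mice at 14 weeks and 5 at 96 weeks. All mice shared genotype and sex by their labels, which name no treatment, and the groups differed in age. The mixed background is the one that the methods give for the mice of the arrays. One array (Affymetrix Mouse Gene ST) was made per mouse, and the labels name no batch. The question was which transcripts differ between young and aged kidney, and values below are log2 expression as the authors normalized it.

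Ligands of these receptors include fatty acids, retinoic acid, thyroid hormone, oxysterols, bile acids and steroids, and many of the non-steroid receptors bind DNA as a pair with a retinoid X receptor. Orphan receptors have no accepted natural ligand, and the oestrogen-related receptors among them are active without one when the coactivator PGC-1 alpha, encoded by Ppargc1a, is bound. In the kidney, tubules rich in mitochondria use PPAR alpha, the oestrogen-related receptors and PGC-1 alpha to run fatty acid oxidation and respiration.

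Arrays correlated with each other at 0.982 to 0.997, and no pair held identical values. Markers of some leukocytes moved with age. All 10 macrophage and dendritic cell markers had a higher mean at 96 weeks and 3 of them passed the test. The level of that list, the mean log2 value after centring each gene, was -0.483 to -0.406 at 14 weeks and -0.089 to 0.935 at 96 weeks, with replicates 4 (0.935) and 3 (0.788) of the 96 week old kidneys highest. The 6 B cell and plasma cell markers measured had the largest median log2 fold change of the marker lists, 1.11, with 2 called (Jchain at 5.02 and Igha). Their level was -1.211 to -1.103 at 14 weeks and 0.237 to 1.815 at 96 weeks, highest in replicate 4 and then in replicate 1 (1.11). None of the 6 T cell and NK cell markers passed, and their level in aged replicates 2 (-0.462) and 5 (-0.346) was no higher than at 14 weeks (-0.398 to -0.288). The 7 adipocyte markers, none called, stood out in 14 week replicate 2, at 0.572 against -0.142 to -0.013 in the other young kidneys. The 10 proximal tubule markers were lowest in aged replicates 4 and 3, at -0.184 and -0.144, against -0.002 to 0.109 at 14 weeks. Their median log2 fold change was -0.02, and 1 was called, Slc7a13, which was lower (-0.87, limma adjusted p = 0.010). The 6 markers of the thick ascending limb and distal tubule, none called, were also lowest in aged replicates 4 and 3. They were at -0.142 and -0.433, against 0.018 to 0.087 at 14 weeks. The lists for podocytes, for stroma and smooth muscle, and for endothelium had 1 called marker each. These were Wt1 (-0.37, limma adjusted p = 0.024), Myh11 (-0.48, 0.019) and Egfl7 (0.29, 0.043). The medians of these lists were 0.05, 0.09 and 0.09, in that order, and no collecting duct marker was called. In whole tissue, fewer cells of a type and less RNA per cell cannot be told apart. The part of cell makeup in the results was not tested. Some values are also given without aged replicates 3 and 4.

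By limma, fitted over all genes with Benjamini-Hochberg adjustment, 3 of the 40 members passed an adjusted p under 0.05, or 7.5% against 6.72% of all genes. Nr4a1 was the 1 member that rose (2.5%, against 4.31% of all genes), and Ppargc1a and Esrrg fell (5.0%, against 2.40%). The share that changed was near that of all genes and does not set the receptors apart from other genes. At an unadjusted p under 0.05 there were 10 members, 8 lower and 2 higher, which is 25.0% against 28.5% of all genes. No member passed the fold change of 1.5 with an unadjusted p under 0.05 that the methods used, where 1.60% of all genes did. The methods' t-test called 0 members after adjustment and 8 without it, and 0 past that fold.

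Most receptors differed little between the ages. In the deposited values the median log2 fold change of the 40 members was -0.03, as it was over all genes. By those values 22 members were within 0.1 of 0. Members with an unadjusted p at or above 0.05 numbered 30, and their log2 fold changes lay between -0.18 (Nr1h4) and 0.22 (Thra). Mean values were lower at 96 weeks for 26 members (65.0%, against 56.6% of all genes). The age groups did not overlap for 3 members, each lower at 96 weeks (7.5%, against 13.3% of all genes in either direction). For 31 members the SD was larger at 96 weeks (77.5%, against 58.9% of all genes). The plot of log2 fold changes by role shows this as a column of points around 0.

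**Figure D1:**
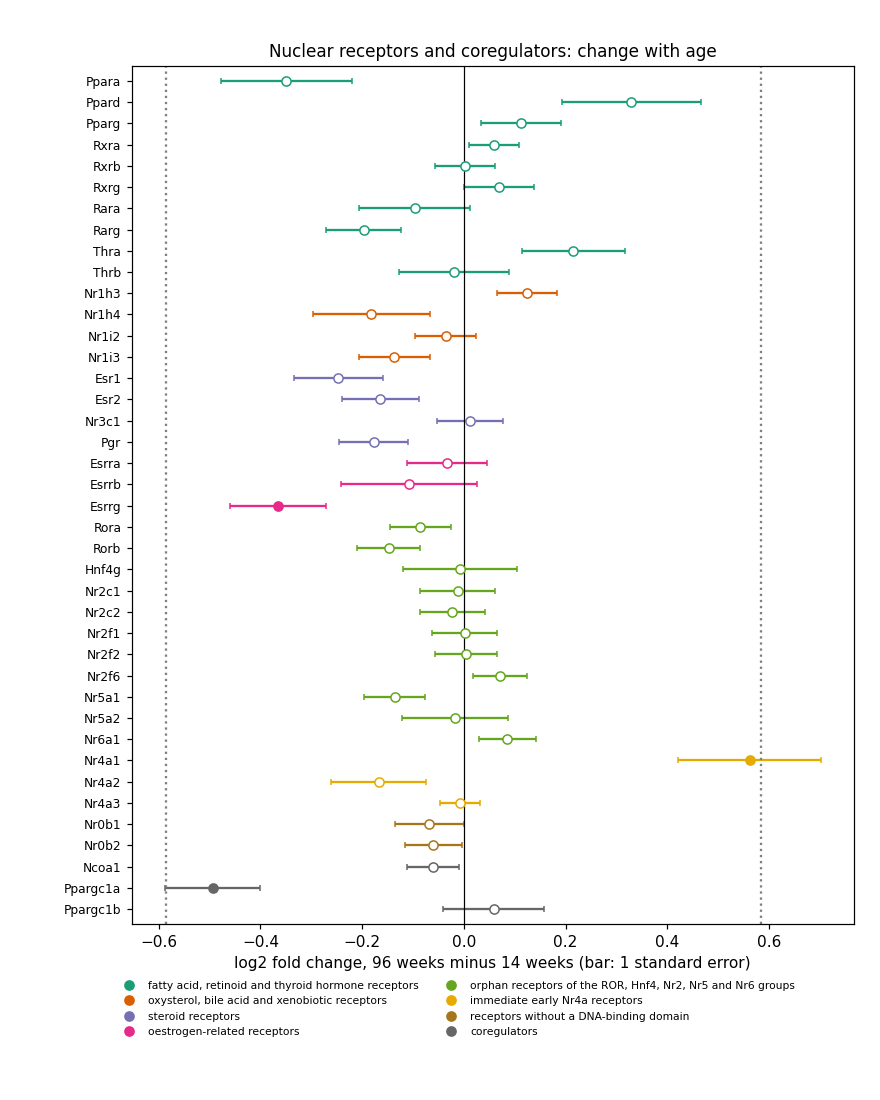
Log2 fold change of each of the 40 members, 96 minus 14 weeks, with 1 standard error from limma and colours for the role of the gene. Filled points passed an adjusted p under 0.05 (Ppargc1a, Esrrg, Nr4a1), dotted lines mark the 1.5-fold change, and no point lies beyond them.

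Ppargc1a was the member with the smallest p. It encodes PGC-1 alpha, the coactivator that drives mitochondrial biogenesis and respiration together with PPAR alpha and the oestrogen-related receptors. Log2 expression was 11.21, 11.22, 11.08 and 11.36 in replicates 1 to 4 of the 14 week old kidneys. It was 10.92, 10.75, 10.44, 10.71 and 10.80 in replicates 1 to 5 of the 96 week old kidneys. Every 96 week old kidney was below every 14 week old kidney, with replicate 3 at 96 weeks the lowest. The log2 fold change was -0.49 with a standard error of 0.094, which is 1.41-fold higher at 14 weeks (limma adjusted p = 0.017). The exact two-sided permutation test over the arrays gave p = 0.0079, the smallest value that 4 against 5 arrays can give.

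A second probe set of Ppargc1a, which the choice of the brightest left out, moved the same way. Its mean fell from 9.25 ± 0.048 (SD, n = 4) to 8.93 ± 0.22 (SD, n = 5), and its lowest 14 week old kidney (9.20) was above its highest 96 week old kidney (9.10). The difference was -0.31 on the log2 scale (exact permutation p = 0.024). Ppargc1a was the member whose change passed in most of the alternative settings, 17 of 19. It did not pass without replicate 4 at 14 weeks, its highest array (-0.45, limma adjusted p = 0.055), and the methods' t-test gave 0.066. Without both replicates 3 and 4 at 96 weeks, the arrays with the most macrophage transcript, the log2 fold change was -0.39 (limma adjusted p = 0.030).

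The promoter of Ppargc1a is known as a target of cAMP signalling, through a factor that binds the cAMP response element. The RefSeq promoter (GRCm38.p6, chr5:51567676-51567975, minus strand, 250 bases before to 50 bases after the transcription start) is shown because it belongs to the member with the smallest p. Capitals mark the core letters of the cAMP response element, TGACG or, read from the other strand, CGTCA.

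Ppargc1a: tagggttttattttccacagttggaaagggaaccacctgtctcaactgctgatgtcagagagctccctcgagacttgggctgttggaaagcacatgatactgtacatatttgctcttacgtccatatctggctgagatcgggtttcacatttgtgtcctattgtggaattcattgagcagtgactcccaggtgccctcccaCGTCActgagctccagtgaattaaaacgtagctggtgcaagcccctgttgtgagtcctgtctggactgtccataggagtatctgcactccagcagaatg

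One core element was found, beginning 49 bases before the start. The same letters occurred in 20.8% of the 32851 mouse promoters of that length and in 16 of the 55 promoters held for 35 of the members, so their presence in 1 promoter is common. A match is letters only, and the arrays did not measure binding.

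Ppargc1b encodes PGC-1 beta, a close relative of PGC-1 alpha that also coactivates the oestrogen-related receptors. It did not pass. Young kidneys averaged 6.82 ± 0.033 (SD, n = 4) and aged kidneys 6.88 ± 0.22 (SD, n = 5), a log2 fold change of 0.06 with a standard error of 0.099 (limma adjusted p = 0.71). The 96 week old kidneys spread from 6.58 in replicate 4 to 7.17 in replicate 1, around a narrow 14 week group. Ncoa1, the steroid receptor coactivator SRC-1, was at 8.88 and 8.82 in the means of the 2 ages (log2 fold change -0.06, standard error 0.051, limma adjusted p = 0.43). Of 3 coregulators measured, 1 therefore fell and the others had deposited values within 0.1 of 0. After a repeated quantile normalization Ncoa1 was at -0.14.

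Coregulators outside the set were put to the same test. These were 21 measured genes that encode corepressor complexes, acetyltransferases, methyltransferases and mediator parts. Limma called 0 of them, where 6.72% of all genes were called, and a list of this size can hold none at that share. At an unadjusted p under 0.05 there were 4, where 28.5% of all genes were. The methods' t-test called 0, and the median was 0.03. That median turned negative after a repeated quantile normalization (-0.04) and after cyclic loess (-0.02). Hdac3, the deacetylase of the corepressor complex, came nearest with a log2 fold change of 0.27 (limma adjusted p = 0.070). Values for the arginine methyltransferases Prmt1 and Carm1, which act as coactivators, were 0.35 (0.084) and 0.18 (0.089). Both had every 96 week old kidney above every 14 week old kidney.

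Among the oestrogen-related receptors, which control genes of mitochondrial energy metabolism, Esrrg (ERR gamma) fell. Log2 expression was 9.89, 10.05, 9.93 and 10.03 at 14 weeks, and 9.77, 9.86, 9.52, 9.42 and 9.47 at 96 weeks, in replicate order. The groups did not overlap, but 96 week replicate 2 came close to 14 week replicate 1. Replicates 3, 4 and 5 at 96 weeks were the low ones. From young to aged the log2 fold change was -0.37 with a standard error of 0.094, 1.29-fold higher at 14 weeks (limma adjusted p = 0.046, exact permutation p = 0.024).

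The call on Esrrg was close to the threshold. It passed in 8 of 19 alternatives, and of the 9 that leave out 1 array it passed without replicate 2 at 96 weeks (limma adjusted p = 0.029) and in no other, where the highest p was 0.12. The log2 fold change stayed between -0.43 and -0.32 in those 9. Without both replicates 3 and 4 at 96 weeks it was -0.27 (limma adjusted p = 0.12). Markers of the thick ascending limb and distal tubule were at -0.433, -0.142 and 0.085 in the replicates 3, 4 and 5 in which Esrrg was low, and their part in the fall was not tested.

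Esrra (ERR alpha) and Esrrb (ERR beta) did not pass. Esrra was at 6.45 to 6.52 in the 14 week old kidneys and at 6.35 to 6.44 in 4 of the 96 week old kidneys, with replicate 5 apart at 6.74 (log2 fold change -0.03, limma adjusted p = 0.80). Esrrb was at 6.49 to 6.60 at 14 weeks, and its 96 week old kidneys read 6.63, 6.61, 5.92, 6.35 and 6.60. The fall in replicate 3 left its mean difference at -0.11 with a standard error of 0.13 (limma adjusted p = 0.60).

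Of 14 measured genes in a list of known ERR and PGC-1 targets, limma called 3 higher and 0 lower. Of all genes 4.31% were called higher and 2.40% lower. At the latter share a list of 14 can hold none, so the 0 is no result about the targets. At an unadjusted p under 0.05 there were 7, where 28.5% of all genes were. The median log2 fold change was 0.13 against -0.03 over all genes. The methods' t-test called 0 of them, and the alternatives between 0 and 4. The median was 0.06 after a repeated quantile normalization and 0.08 after cyclic loess. Esrra itself is in this list. Ndufv1, the subunit of complex I that accepts electrons from NADH, was at 9.68, 9.64, 9.68 and 9.32 at 14 weeks and at 10.19, 10.38, 9.92, 9.98 and 10.19 at 96 weeks. Every aged kidney was higher, and the log2 fold change was 0.55 (limma adjusted p = 0.018, passing in 18 of 19 alternatives). Mdh2, mitochondrial malate dehydrogenase, rose by 0.30 (0.024, 14 of 19 alternatives). Uqcrc1, a core subunit of complex III, rose by 0.34 (0.049), and passed in 6 of 19 alternatives.

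**Figure D2:**
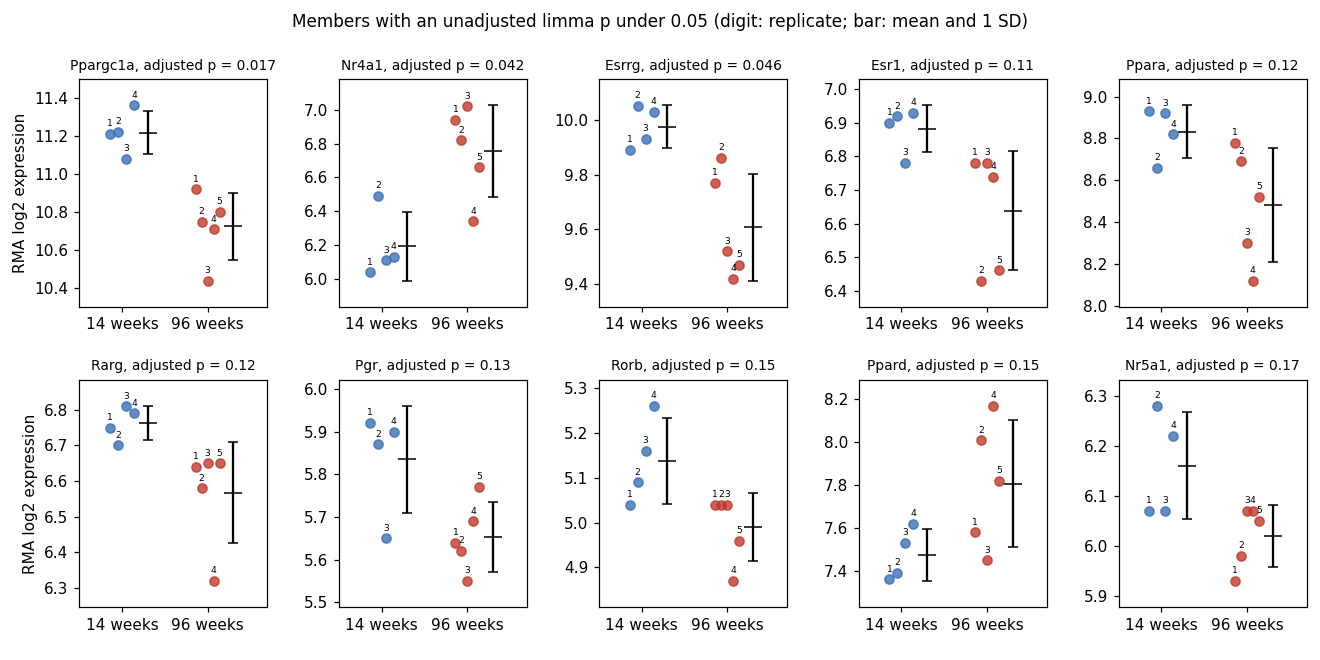
Log2 expression of the 10 members with an unadjusted limma p under 0.05 in each array (digits are replicate numbers), with the mean and 1 SD of each age group. The age groups do not overlap for Ppargc1a, Esrrg and Rarg, and 1 array of each age crosses over for Nr4a1.

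Nr4a1, also called Nur77, rose. It is an immediate early gene, one of 3 receptors without a known ligand pocket that are induced within minutes by growth factors, cAMP and stress and act through their amount. Log2 expression was 6.04, 6.49, 6.11 and 6.13 at 14 weeks, and 6.94, 6.82, 7.02, 6.34 and 6.66 at 96 weeks. The groups overlapped through 14 week replicate 2 (6.49) and 96 week replicate 4 (6.34), and the remaining arrays were apart. The rise was 0.56 on the log2 scale with a standard error of 0.14, or 1.48-fold (limma adjusted p = 0.042, exact permutation p = 0.024).

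The call on Nr4a1 depended on single arrays. It passed without 14 week replicate 2 (log2 fold change 0.66, limma adjusted p = 0.038) and without 96 week replicate 4 (0.67, 0.016), and did not pass when any other single array was left out, where the adjusted p reached 0.11. Over all alternatives it passed in 10 of 19. Without both replicates 3 and 4 at 96 weeks the log2 fold change was 0.61 (limma adjusted p = 0.027), and replicate 4 is the aged array lowest in Nr4a1.

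Its relatives did not pass. Nr4a2 (Nurr1) was at 6.26, 6.74, 6.27 and 6.34 at 14 weeks and at 6.17 to 6.29 at 96 weeks. Replicate 2 at 14 weeks stood above the other 8 arrays, and the log2 fold change was -0.17 with a standard error of 0.093 (limma adjusted p = 0.26, exact permutation p = 0.048). Nr4a3 (Nor1) was dim, at 4.84 to 4.89 in all 9 arrays (log2 fold change -0.01). The same 14 week replicate 2 was the highest of its age for all 3 Nr4a genes and in adipocyte markers (0.572), whose part was not tested.

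The promoters of the 3 Nr4a genes were picked to be shown after the search, because each carries a number of cAMP response element cores that few promoters hold, while Nr4a1 alone of the 3 passed the test. All are RefSeq promoters of GRCm38.p6, Nr4a1 at chr15:101266596-101266895 (plus strand), Nr4a2 at chr2:57123954-57124253 (minus) and Nr4a3 at chr4:48045055-48045354 (plus), with the core letters in capitals as before.

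Nr4a1: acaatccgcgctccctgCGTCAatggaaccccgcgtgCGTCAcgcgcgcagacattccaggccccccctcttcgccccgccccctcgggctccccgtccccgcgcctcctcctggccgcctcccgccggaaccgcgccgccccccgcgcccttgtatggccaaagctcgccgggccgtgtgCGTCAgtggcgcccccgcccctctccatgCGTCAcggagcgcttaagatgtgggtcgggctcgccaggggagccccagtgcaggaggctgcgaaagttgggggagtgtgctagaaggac

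Nr4a2: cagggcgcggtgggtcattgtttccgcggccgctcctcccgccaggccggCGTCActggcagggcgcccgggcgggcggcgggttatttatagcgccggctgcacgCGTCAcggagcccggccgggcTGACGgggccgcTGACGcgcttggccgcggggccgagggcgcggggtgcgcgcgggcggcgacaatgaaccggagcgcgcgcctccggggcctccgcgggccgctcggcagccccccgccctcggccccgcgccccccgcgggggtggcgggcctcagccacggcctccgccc

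Nr4a3: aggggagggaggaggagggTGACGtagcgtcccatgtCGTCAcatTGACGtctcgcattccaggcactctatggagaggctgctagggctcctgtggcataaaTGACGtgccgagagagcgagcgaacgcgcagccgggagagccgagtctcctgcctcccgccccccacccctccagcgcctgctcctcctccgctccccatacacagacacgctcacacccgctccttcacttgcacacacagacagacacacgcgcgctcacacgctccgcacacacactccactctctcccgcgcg

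Each held 4 core elements, all before the start. Those of Nr4a1 begin 233, 213, 69 and 40 bases before it, those of Nr4a2 200, 144, 123 and 111 bases, and those of Nr4a3 231, 213, 205 and 147 bases. Of 32851 mouse promoters 76, or 0.231%, held 4 or more, where an uninterrupted palindrome counts once on each strand, and the 3 Nr4a genes were the members among them. The 4 promoters listed for Esrrg held none of the letters searched, which were this core, the receptor site AGGTCA, its longer form AAGGTCA and the E-box CACGTG, each on both strands. AGGTCA was found in 11 of the members' 55 promoters and in 16.3% of all promoters, AAGGTCA, which contains it, in 3 and in 4.72%, and CACGTG in 6 and in 7.15%.

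Of 15 other immediate early genes measured, limma called 0 higher and 1 lower. Of all genes 4.31% were called higher and 2.40% lower. At the former share a list of 15 can hold none, so the 0 does not set Nr4a1 apart from these genes. At an unadjusted p under 0.05 there were 3, where 28.5% of all genes were, and the methods' t-test called 0. Zfp36, which encodes tristetraprolin, an mRNA-destabilizing protein, read 9.07, 8.89, 8.87 and 8.62 at 14 weeks and 8.47, 8.28, 8.56, 8.28 and 7.98 at 96 weeks, with every aged kidney lower. Its log2 fold change was -0.55 (limma adjusted p = 0.029, 13 of 19 alternatives). Btg2, an antiproliferative gene, had a value of 0.30 (0.16) and Egr3, a zinc finger factor, -0.19 (0.10). The median of the 15 was 0.09, and it turned to -0.01 without both replicates 3 and 4 at 96 weeks. By array the level of the list ran from -0.183 to 0.163 at 14 weeks, highest in replicate 2, and from -0.236 to 0.34 at 96 weeks, highest in replicate 3. Nr4a1 was the highest of its age in the same 2 arrays.

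No receptor for fatty acids, retinoids or thyroid hormone passed. Of these 10 members limma called 0, with 3 at an unadjusted p under 0.05 and 0 by the methods' t-test after adjustment, and the median was 0.03. The PPARs, which bind fatty acids and their derivatives, had values in opposite directions. Ppara, the regulator of fatty acid oxidation in proximal tubule and liver, was at 8.93, 8.66, 8.92 and 8.82 at 14 weeks and at 8.78, 8.69, 8.30, 8.12 and 8.52 at 96 weeks. The aged replicates 3, 4 and 5 were below every young kidney, and replicates 1 and 2 were within the young range. This gave a log2 fold change of -0.35 with a standard error of 0.13 (limma adjusted p = 0.12, exact permutation p = 0.063). Without both replicates 3 and 4, in which proximal tubule markers were lowest, it was -0.17 (limma adjusted p = 0.26).

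Ppard, the broadly expressed PPAR, was at 7.36, 7.39, 7.53 and 7.62 at 14 weeks and at 7.58, 8.01, 7.45, 8.17 and 7.82 at 96 weeks. Replicates 2, 4 and 5 at 96 weeks were above the young range. The mean difference was 0.33 with a standard error of 0.14 (limma adjusted p = 0.15, exact permutation p = 0.087). Pparg, the adipocyte and macrophage PPAR, was at 6.42 to 6.48 at 14 weeks and at 6.46 to 6.83 at 96 weeks, where replicates 4 (6.83) and 1 (6.66) were high (log2 fold change 0.11, limma adjusted p = 0.36). Replicate 4 was the highest in macrophage markers as well (0.935). Replicate 3, next in those markers (0.788), read 6.48 for Pparg, and replicate 1 was at 0.136 in them. The part of macrophages in Pparg was not tested.

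PPAR targets were described beside these receptors. Of 21 measured, 3 rose and none fell by limma, with 7 at an unadjusted p under 0.05, and the median was 0.11. The methods' t-test, the replicate block and the fit without 14 week replicate 3 each called 1. The median was 0.06 after a repeated quantile normalization and 0.08 after cyclic loess. Fabp1, the liver fatty acid-binding protein, was at 5.42, 4.97, 4.98 and 5.42 at 14 weeks and at 7.22, 6.26, 7.55, 7.23 and 6.74 at 96 weeks. Every aged kidney was above every young one, and the rise was 3.49-fold (limma adjusted p = 0.0048, 19 of 19 alternatives). Acot1, a cytosolic acyl-CoA thioesterase, rose by 0.37 (0.024) and Cpt2, which completes carnitine-dependent import of fatty acids into mitochondria, by 0.41 (0.024). They passed in 14 and 13 of 19 alternatives, and without both replicates 3 and 4 at 96 weeks 1 gene of the list passed.

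The retinoid X receptors, partners of the PPAR, retinoid, thyroid, LXR and FXR receptors, had similar means at both ages. Rxra was at 7.72 ± 0.054 (SD, n = 4) and 7.78 ± 0.052 (SD, n = 5), Rxrb at 6.32 ± 0.055 and 6.32 ± 0.093, and Rxrg at 4.96 ± 0.0056 and 5.03 ± 0.13, in the order of age. The largest of the 3 log2 fold changes was 0.07.

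Rarg, a retinoic acid receptor, was the third member whose groups did not overlap. It was at 6.75, 6.70, 6.81 and 6.79 at 14 weeks and at 6.64, 6.58, 6.65, 6.32 and 6.65 at 96 weeks. Replicate 4 was the low aged array, and the others lay just under the young range. The log2 fold change was -0.20 with a standard error of 0.073, and it missed the threshold by limma (adjusted p = 0.12) with an exact permutation p of 0.0079. Rara, its relative, overlapped throughout (log2 fold change -0.10, limma adjusted p = 0.57).

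Aldh1a1 and Aldh1a2, enzymes that make retinoic acid, had larger log2 fold changes than any receptor in the set. Of 11 measured genes of retinoic acid handling and response, 2 rose and none fell by limma, with 5 at an unadjusted p under 0.05 and a median of 0.12. That median was 0.06 after a repeated quantile normalization and 0.07 after cyclic loess. Aldh1a2, a retinaldehyde dehydrogenase, was at 7.76, 7.58, 7.68 and 7.65 at 14 weeks and at 8.77, 8.87, 9.14, 8.83 and 8.74 at 96 weeks. The gap between the ages was wide against the spread within them, and the log2 fold change was 1.20 (limma adjusted p = 2.0e-04). Aldh1a1, of the same family, rose by 1.51 (5.4e-04). Both passed in all 19 alternatives. Other enzymes of the same pathway did not pass, with values of -0.19 for the retinaldehyde dehydrogenase Aldh1a3 (0.10) and 0.12 for the retinol dehydrogenase Rdh10 (0.37), which were named after their values were seen. Dhrs3, a retinaldehyde reductase induced by retinoic acid, had a value of 0.43 (0.080) with every aged kidney above every young one.

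Thyroid hormone receptors did not pass. Thra was at 7.71, 7.84, 7.77 and 7.92 at 14 weeks and at 8.0, 8.33, 7.98, 7.74 and 8.07 at 96 weeks. Replicate 4 was within the young range and the other aged kidneys above it (log2 fold change 0.22, standard error 0.10, limma adjusted p = 0.19). After a repeated quantile normalization the log2 fold change of Thra was 0.12. Thrb was at 8.37 to 8.45 at 14 weeks and spread from 8.04 to 8.62 at 96 weeks, with replicate 3 lowest (log2 fold change -0.02).

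Of 10 genes of thyroid hormone handling and response, limma called 0 higher and 1 lower, with 4 at an unadjusted p under 0.05 and a median of -0.08, and the methods' t-test and the replicate block called 0. Klf9, a transcription factor induced by thyroid hormone and by glucocorticoids, was at 8.66, 8.59, 8.65 and 8.75 at 14 weeks and at 8.59, 8.33, 8.14, 8.02 and 8.04 at 96 weeks. The groups met at 8.59, and the log2 fold change was -0.44 (limma adjusted p = 0.042, 8 of 19 alternatives). When single arrays were left out it passed without replicate 1 at 96 weeks (0.012) and in no other. Without both replicates 3 and 4 at 96 weeks it was -0.34 (0.12), and Slc16a10, a transporter of aromatic amino acids and thyroid hormone, passed at 0.45 (0.021) where all arrays gave 0.33 (0.072). Thrsp, a lipogenic thyroid hormone target, had a value of -0.76 (0.056), with 14 week replicate 2 at 8.45 and the other young kidneys at 7.24 to 7.59. Adipocyte markers were highest in that array (0.572), and without it the value was -0.51 (0.056).

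Receptors for oxysterols, bile acids and xenobiotics had small differences. Of 4 measured, limma called 0, with 0 at an unadjusted p under 0.05, and the methods' t-test called 0. Nr1h3 (LXR alpha), the oxysterol receptor, had means of 6.82 ± 0.050 (SD, n = 4) and 6.94 ± 0.096 (SD, n = 5), a log2 fold change of 0.12 (limma adjusted p = 0.19). Nr1h4 (FXR), the bile acid receptor, was at 10.02 ± 0.14 and 9.84 ± 0.23, with replicate 4 lowest at 9.56 (log2 fold change -0.18, limma adjusted p = 0.31). The xenobiotic receptors Nr1i2 (PXR) and Nr1i3 (CAR) differed by -0.04 and -0.14 on the log2 scale (limma adjusted p = 0.71 and 0.22).

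By limma 2 LXR targets rose and none fell of 12 measured, with 7 at an unadjusted p under 0.05 and a median of 0.16. The count was 0 by the methods' t-test, with the replicate block and without 14 week replicate 1, 3 or 4. Apoe, the lipoprotein that carries cholesterol, was at 8.26, 8.52, 8.23 and 8.28 at 14 weeks and at 8.91, 8.97, 10.01, 9.36 and 9.29 at 96 weeks. Every aged kidney was higher, and replicates 3 and 4, highest in macrophage markers, were highest for Apoe, which macrophages also make. Its log2 fold change was 0.99 (limma adjusted p = 0.019, 14 of 19 alternatives), and it lay between 0.74 and 1.09 in the alternatives. Pltp, the phospholipid transfer protein, rose by 0.63 (0.032) and was also highest in those arrays, at 8.43 and 8.44. Pltp passed in 7 of 19 alternatives, and the part of macrophages in the rise of Apoe and Pltp was not tested. Scd1, a fatty acid desaturase, had a value of 0.23 (0.077), and without both replicates 3 and 4 at 96 weeks 1 gene of the list passed.

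Of 12 bile acid genes measured, limma called 0 higher and 2 lower, with 4 at an unadjusted p under 0.05 and a median of -0.08, and 3 had a higher mean at 96 weeks. The methods' t-test and the replicate block called 0. Cyp7b1, an oxysterol 7 alpha-hydroxylase, was at 6.43, 6.58, 6.29 and 6.04 at 14 weeks and at 5.85, 5.51, 5.89, 5.62 and 5.62 at 96 weeks. The groups did not overlap, and the log2 fold change was -0.64 (limma adjusted p = 0.015, 17 of 19 alternatives). Slc10a2, the apical sodium-dependent bile acid transporter, fell by 0.86 on the log2 scale (0.045), with replicate 3 lowest at 7.90, and passed in 8 of 19 alternatives. Without both replicates 3 and 4 at 96 weeks it was -0.62 (0.054). Fgf15, the FXR-induced hormone of the gut, had a value of -0.26 (0.087).

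Of 13 PXR and CAR targets, limma called 2 higher and 0 lower, with 6 at an unadjusted p under 0.05 and a median of 0.00. The methods' t-test called 0, as did the fits without 14 week replicate 2 or 4 or without 96 week replicate 1 or 2. The median of the list was 0.09 after a repeated quantile normalization and 0.08 after cyclic loess, and 0.42 over the targets above the limit for dim genes. Abcb1b, a P-glycoprotein drug pump, was at 7.64, 7.60, 8.26 and 7.55 at 14 weeks and at 8.60, 8.68, 8.37, 8.35 and 8.19 at 96 weeks. Young replicate 3 reached into the aged range, and the log2 fold change was 0.68 (limma adjusted p = 0.030, 11 of 19 alternatives). Abcc3, an exporter of conjugates, rose by 0.51 (0.033), and passed in 9 of 19 alternatives. Aldh1a7 had a value of 0.56 (0.062).

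Of the 4 steroid receptors limma called 0, with 2 at an unadjusted p under 0.05, and the methods' t-test called 0 after adjustment. Esr1, oestrogen receptor alpha, was at 6.90, 6.92, 6.78 and 6.93 at 14 weeks and at 6.78, 6.43, 6.78, 6.74 and 6.46 at 96 weeks. No aged kidney was above the lowest young one, which shared its value with 2 aged kidneys. This gave a log2 fold change of -0.25 with a standard error of 0.088 (limma adjusted p = 0.11, exact permutation p = 0.048).

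Pgr, the progesterone receptor and an oestrogen-induced gene, was at 5.92, 5.87, 5.65 and 5.90 at 14 weeks and at 5.64, 5.62, 5.55, 5.69 and 5.77 at 96 weeks. Young replicate 3 lay among the aged kidneys (log2 fold change -0.18, standard error 0.068, limma adjusted p = 0.13, exact permutation p = 0.056). Esr2, oestrogen receptor beta, was dim, with means of 5.16 and 4.99 (log2 fold change -0.16, limma adjusted p = 0.18). After a repeated quantile normalization the values of Pgr and Esr2 were smaller, at -0.11 and -0.07. Nr3c1, the glucocorticoid receptor, was at 8.36 ± 0.076 (SD, n = 4) and 8.37 ± 0.10 (SD, n = 5). Its log2 fold change was 0.01 with a standard error of 0.064, and -0.08 after a repeated quantile normalization. At 96 weeks 3 of the 4 steroid receptors were lower in mean, none past the adjusted threshold.

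Of 13 genes of oestrogen and progesterone handling and response, Pgr included, limma called 1 higher and 0 lower, with 7 at an unadjusted p under 0.05. The median was 0.04 and turned to -0.02 after a repeated quantile normalization and -0.01 after cyclic loess. The gene was Ctsd, a lysosomal protease that oestrogen induces in breast cells, at 10.62, 10.65, 10.59 and 10.69 at 14 weeks and 11.26, 10.99, 11.41, 11.20 and 11.12 at 96 weeks. All aged kidneys were higher (log2 fold change 0.56, limma adjusted p = 0.0057, 19 of 19 alternatives). Xbp1, a factor of the secretory pathway, had a value of 0.36 (0.050, just above the threshold) and Tff3, a trefoil peptide, -0.25 (0.076).

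Of 13 glucocorticoid genes, limma called 2 higher and 0 lower, with 8 at an unadjusted p under 0.05 and a median of -0.16. The methods' t-test and the replicate block called 0, and without 14 week replicate 2 the count was 1 higher and 2 lower. The median was -0.28 without 96 week replicate 2, -0.26 after a repeated quantile normalization and -0.06 without both replicates 3 and 4 at 96 weeks. Hsd11b1, which regenerates active glucocorticoid, was at 8.07, 8.18, 8.24 and 7.98 at 14 weeks and at 8.44, 8.5, 8.61, 8.86 and 8.78 at 96 weeks. Its groups did not overlap (log2 fold change 0.52, limma adjusted p = 0.015, 17 of 19 alternatives). Fkbp4, a co-chaperone of steroid receptors, rose by 0.36 (0.021, 15 of 19 alternatives). Zbtb16, a glucocorticoid-induced repressor, had a value of -0.70 (0.074), with young values from 7.26 to 8.62 and aged values from 7.20 to 7.45. Lcn2, an injury marker named here after its value was seen, had the largest difference of the list at 1.58, with an SD of 1.15 at 96 weeks (0.079). The plot of the pathway lists sets these genes beside the receptors.

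**Figure D3:**
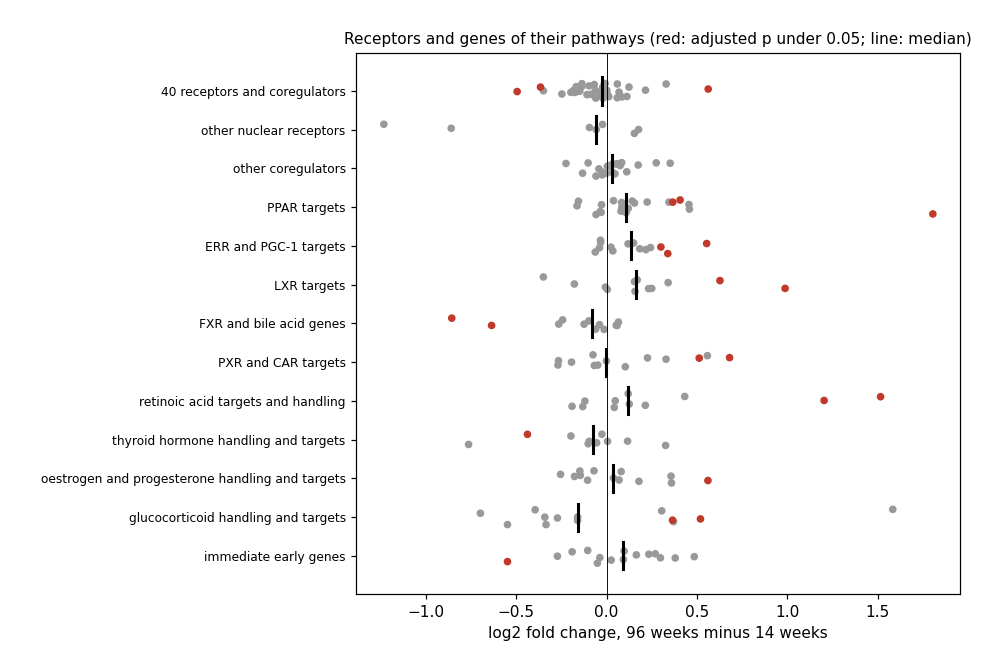
Log2 fold change, 96 minus 14 weeks, of every measured gene in the set of receptors and in 12 lists of related receptors, coregulators, targets and ligand handling (1 point per gene, red for an adjusted p under 0.05, line for the median). The 40 members lie between -0.49 and 0.56, and Fabp1, Aldh1a1, Aldh1a2 and, without passing the test, Lcn2 lie above 1.

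The 11 orphan receptors of the ROR, Hnf4, Nr2, Nr5 and Nr6 groups had small differences. Limma called 0 and the methods' t-test 0 after adjustment, 2 had an unadjusted p under 0.05, the median was -0.01, and the range ran from -0.15 to 0.08. Rorb, a clock-linked receptor of brain and retina, was dim, at 5.04, 5.09, 5.16 and 5.26 at 14 weeks and 5.04, 5.04, 5.04, 4.87 and 4.96 at 96 weeks. The value 5.04 was shared by 4 arrays of both ages (log2 fold change -0.15, limma adjusted p = 0.15, exact permutation p = 0.032). Nr5a1, or SF-1, the steroidogenic factor of adrenal and gonad, was at 6.07, 6.28, 6.07 and 6.22 at 14 weeks and at 5.93, 5.98, 6.07, 6.07 and 6.05 at 96 weeks.

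Again 4 arrays shared 1 value, here 6.07, and the log2 fold change of Nr5a1 was -0.14 (limma adjusted p = 0.17, exact permutation p = 0.048). Adrenal cortex markers, all 8 measured and none called, were level between the ages, at -0.073 to 0.118 and -0.083 to 0.037. All 6 ovary markers measured had a lower mean at 96 weeks, and 1 of them, Inha, was called (log2 fold change -0.28, limma adjusted p = 0.048). Their mean signals were low, 4.905 to 5.84, and only 1 was above the limit for dim genes. Their median log2 fold change was -0.14, and -0.05 after a repeated quantile normalization or cyclic loess. Neither of these called Inha, nor did median centring or the methods' t-test. The level of that list was 0.046 to 0.12 at 14 weeks and -0.106 to -0.017 at 96 weeks, without overlap, and its part in the values of Nr5a1, Esr1 and Pgr was not tested. Rora, which drives the clock gene Bmal1, differed by -0.09 and had 1 aged array apart, replicate 2 at 9.15. Hnf4g, a relative of the tubular factor HNF4 alpha, ranged from 6.90 to 7.52 among the aged kidneys and had a mean difference of -0.01.

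The testicular receptors Nr2c1 and Nr2c2 differed by -0.01 and -0.02. The COUP-TF genes Nr2f1 and Nr2f2 and their relative Nr2f6 differed by 0.00, 0.00 and 0.07. Nr5a2 (LRH-1), a receptor of liver and gut, differed by -0.02, and Nr6a1, the germ cell nuclear factor, by 0.08. Standard errors of these 7 log2 fold changes ran from 0.053 to 0.10. The receptors without a DNA-binding domain, which repress other receptors, were Nr0b1 (DAX-1) at -0.07 and Nr0b2 (SHP) at -0.06, with standard errors of 0.067 and 0.056.

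Of 7 other nuclear receptors, limma called 0, with 2 at an unadjusted p under 0.05, the methods' t-test called 0, and the median was -0.06. The 2 were the REV-ERB genes, which repress Bmal1 and cycle over the day. Nr1d1 was at 10, 10.16, 9.91 and 10.18 at 14 weeks and at 9.73, 8.79, 9.32, 7.62 and 8.70 at 96 weeks. All aged kidneys were below all young ones, over a range far wider than at 14 weeks (log2 fold change -1.23, standard error 0.34, limma adjusted p = 0.056). It passed in 5 of 19 alternatives, among them those without 96 week replicate 1 and without 96 week replicate 4. Nr1d2 differed by -0.86 (0.093), with replicate 4 at 96 weeks lowest at 7.92. The methods do not give the hour at which the kidneys were taken, and its part in the values of Nr1d1 and Nr1d2 was not tested. Vdr, the vitamin D receptor, differed by 0.18 (0.18).

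Signal set a limit for some members. Below the 30th percentile of mean signal over all genes (5.56) lay 9 members and above it 31, and the deposited values do not tell a dim gene from an absent one. Values of dim members and of brighter ones also depended on normalization. After a repeated quantile normalization the brighter Thra went from 0.22 to 0.12 and Rora from -0.09 to -0.17. Ncoa1 went from -0.06 to -0.14 and Nr3c1 from 0.01 to -0.08. Not all moved down, as Nr4a1 went from 0.56 to 0.58. The log2 fold changes of Esr2, Rorb and Nr1i3 were -0.07, -0.05 and -0.07 after a repeated quantile normalization. After cyclic loess they were -0.08, -0.06 and -0.05, against -0.16, -0.15 and -0.14 as deposited. For 22 members at least 2 arrays held the identical value, as for 57.3% of all genes, and for 8 members at least 4 arrays did. Nr6a1 read 7.48 in 6 of 9 arrays and Nr4a3 4.87 in 6, Nr0b1 3.96 in 5. For such genes the spread between mice is not fully measured. Ppargc1a, Esrrg and Nr4a1 had a different value in every array.

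**Figure D4:**
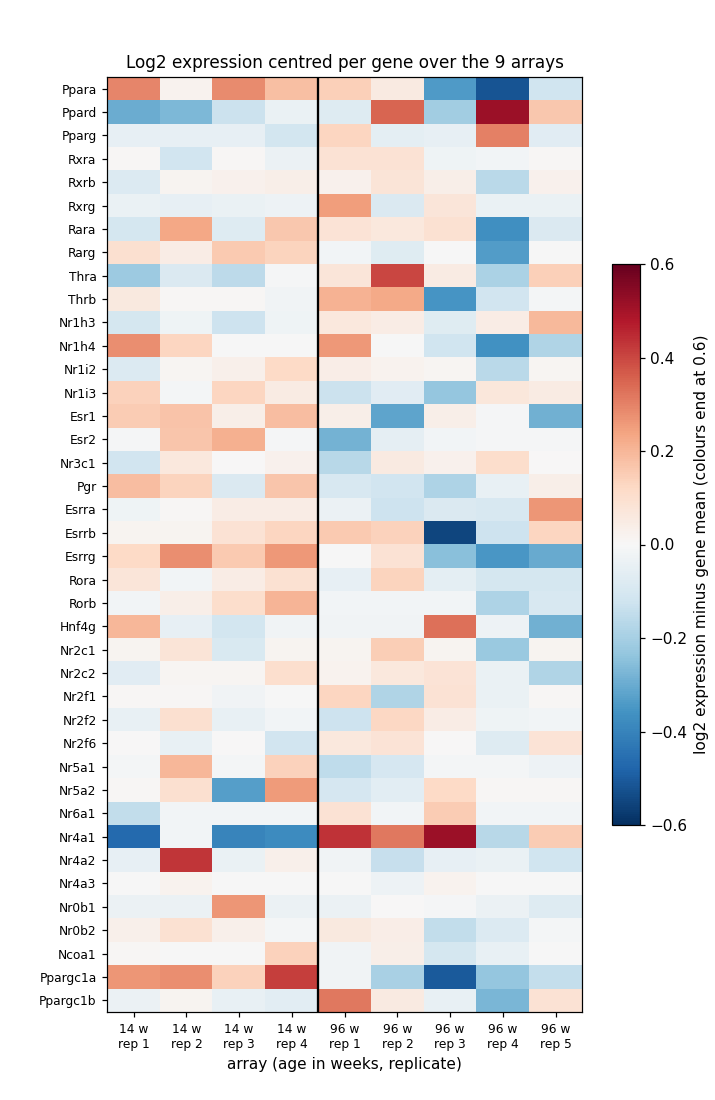
Log2 expression of the 40 members (ordered by role) in the 9 arrays, centred on the mean of each gene, with colours ending at 0.6. Ppargc1a is above its mean in the 4 arrays of 14 weeks and below it at 96 weeks. Esrrg is above its mean at 14 weeks, with aged replicates 1 and 2 at or above it as well. Nr4a1 is below its mean at 14 weeks and in aged replicate 4, and most other rows show no step between the ages.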

How the data were processed

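Kidney RNA of 9 mice was hybridized to Affymetrix Mouse Gene ST arrays, 1 per mouse. The methods name 5 mice per age, and the 9 arrays whose labels give an age were used. Per the labels, the authors processed the scans with RMA (Affymetrix Power Tools 1.12.0) and deposited the result as log2 expression of 35557 probe sets. RMA shifts arrays to a common distribution, and signal over background was not given. The array annotation's build is not given in the sources used here. Promoter coordinates are those of RefSeq on GRCm38.p6. A single symbol was annotated to 21789 probe sets, several symbols to 1621, and 12147 had none. Only the first kind was used, with the brightest probe set per gene.

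The ages were set against each other in R 4.3.3 by lmFit and eBayes of limma 3.58.1, with Benjamini-Hochberg adjustment over 19938 genes. Genes with an adjusted p under 0.05 are called, and a bare p in parentheses after a log2 fold change of a pathway gene is that adjusted p. The comparison was run before use on simulated arrays with independent noise. Recovery was required there only for changes larger than that of any member, so the run does not vouch for changes of the size described. Exact permutation tests over the 126 arrangements of the arrays, promoter searches and figures used Python 3.11.15. Nothing beyond 1 array per mouse describes the replicates. The p-values set the age difference against a spread that holds differences between mice and between arrays together. The methods' t-test, limma options, normalizations, a filter on dim genes, a mean of probe sets, a replicate block and the omission of arrays were tried as alternatives.

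Members, pathway lists and motifs were chosen with earlier results of these data known. Members with an unadjusted p under 0.05 or separate age groups are given array by array. Of each list, the 3 genes of smallest p and all called genes are named. Counts in the lists stand beside the shares of all genes. These were 4.31% called higher, 2.40% called lower and 28.5% at an unadjusted p under 0.05.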

Additional observations from a re-analysis of the deposited data

Results flagged for a closer look

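In each age group of each gene described, the highest or lowest array was checked for a gap to its nearest neighbour that was large against the range of the group. Such a gap was found in 20 of 152 groups (13.2%), 13 of them among the 80 groups of the members, where chance gives about 1 in 20. Values shared between arrays make such gaps easier to meet.

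Of the members at 14 weeks, replicate 1 stood apart for Rxrb (6.24) and Nr6a1 (7.35), replicate 2 for Nr4a2 (6.74) and Nr4a3 (4.89), replicate 3 for Nr0b1 (4.26), and replicate 4 for Pparg (6.42) and Ncoa1 (8.98). At 96 weeks, replicate 4 stood apart for Rxrb (6.16), Rarg (6.32) and Nr1i2 (6.10), each time as the lowest. Replicate 1 did so for Esr2 (4.78), replicate 5 for Esrra (6.74) and replicate 2 for Rora (9.15).

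Among pathway genes the arrays apart were all at 14 weeks. Replicate 1 was high for Aldh1a7 (5.95), replicate 2 for Apoe (8.52) and Btg2 (8.11), and replicate 3 high for Abcb1b (8.26) and low for Pltp (7.25). Replicate 4 was low for Ndufv1 (9.32) and Uqcrc1 (8.89). None of the arrays for Ppargc1a, Esrrg or Nr4a1 stood apart in this way.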

How the results depend on the processing

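Ppargc1a, Esrrg and Nr4a1 passed together under 6 alternatives (trend and robust moderation, array weights, the filter on dim genes, repeated quantile normalization, median centring and the mean of probe sets) and under cyclic loess, which was chosen after seeing the data. The methods' t-test called 0 members, and leaving out 1 array called between 0 and 2. Over all genes, 1339 were called, 367 by the methods' t-test, 528 to 1135 when 1 array was left out and 941 after cyclic loess. Replicate numbers are shared between the ages, but same-numbered arrays did not deviate together (correlations -0.038 to 0.076). With a replicate block 1 member (Ppargc1a) and 368 genes were called. The count past 1.5-fold was 1 (Nr4a1) with array weights, the replicate block, cyclic loess and without both replicates 3 and 4 at 96 weeks (also chosen after seeing the data), and 0 to 1 when 1 array was left out. The members' median stayed between -0.05 and -0.01. No member with an unadjusted p under 0.05 changed sign in the 19 alternatives, and 17 of the 30 others did in at least 1. The number of arrays limits the precision. Changes as small as those of most members are near the spread within an age, which holds differences between mice and between arrays together.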
